A study of Mus musculus with 6 samples.

Results

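The 10 genes described here encode the Rag GTPases (Rraga, Rragb, Rragc and Rragd), the 5 subunits of the Ragulator complex (Lamtor1 to Lamtor5) and folliculin (Flcn). They were listed by name, as parts of 1 machinery and with no threshold on a measured value, and each of the 10 had its own row among the 24346 genes measured. Messenger RNA of mouse kidney was profiled by RNA-seq in 6 libraries. In 3 of them the mice had drunk water with 0.1% D-serine, the mirror image of common L-serine, and in the other 3 the water held no addition (vehicle). All mice ate food without serine for 1 week, then underwent unilateral nephrectomy (UNX), the removal of 1 kidney, and were killed 2 days later. Strain, age and sex are not given in the labels, sham-operated mice were not analysed here, and nothing says whether each library came from its own mouse, so that p-values measure the spread between these libraries. Values are FPKM, fragments per kilobase of transcript scaled to the mapped fragments of the library, so that the levels of different genes can be set side by side. Depth, estimated from the spacing of the lowest values, was 7210000 to 7670000 fragments in D-serine and 7760000 to 8590000 in vehicle libraries.

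The Rags and Ragulator are the amino acid switch of mTORC1, the growth-promoting kinase complex built around Mtor. RagA or RagB pairs with RagC or RagD, the pair sits on the lysosome on the scaffold that Ragulator provides, and when amino acids are plentiful it brings mTORC1 to the lysosomal surface, where Rheb activates it. Folliculin acts on RagC and RagD as a GTPase-activating protein and is the gene mutated in Birt-Hogg-Dubé syndrome, a human disorder with kidney cysts and tumours. Through folliculin and RagC or RagD, mTORC1 also keeps the transcription factors TFEB and TFE3, which switch on lysosomal genes, in the cytosol. The series title names D-serine, glycolysis and the mTOR pathway, and the comparison asks whether the transcripts of this amino acid switch differ between D-serine and vehicle kidneys.

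For 3 of the 10 transcripts the D-serine and vehicle libraries separated completely. Lamtor4, a small Ragulator subunit, was 1.46-fold as high in D-serine as in vehicle kidneys, while the GTPase transcripts Rraga and Rragc stood at 0.771 and 0.793 of their vehicle means. The other 7 overlapped, and Flcn had nearly equal means. With limma, fitted to log2(FPKM + 1) of the 11737 genes that averaged 1 FPKM or more, 0 of the 9 members tested passed an adjusted p of 0.05 (Benjamini-Hochberg), where 9 of all genes tested (0.0767%) did. At an unadjusted p under 0.05 there were 3 members, against 27.7% of all genes tested (1 member higher, against 13.1%, and 2 lower, against 14.6%), and the 3 of 9 members whose groups did not overlap stood against 35.8% of all genes tested. Both shares lay near those of the whole table. The median log2 difference of the 9 members was -0.057 and that of all genes tested was -0.0078. In sign alone 4 members were higher, against 48.9% of all genes tested, and 5 lower, against 51.1%. With 3 libraries a group, the smallest two-sided p of an exact permutation test is 0.1, so none was run.

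**Figure D1:**
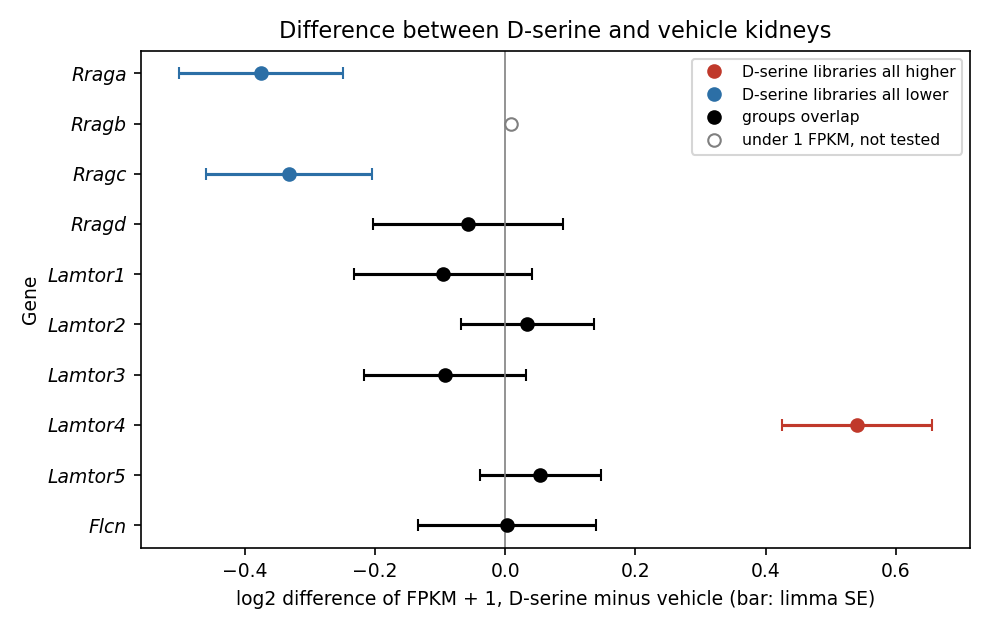
Log2 difference of FPKM + 1 between D-serine and vehicle kidneys (x axis, D-serine minus vehicle) for each of the 10 genes (y axis), with the limma standard error as bars and n = 3 libraries per group. Lamtor4 stands at 0.54, Rraga at -0.37 and Rragc at -0.33, and the other genes lie within 0.10 of 0; Rragb, under 1 FPKM, was not tested and has no bar.

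The promoters of these 3 genes are shown because they are the members whose groups separated, and because TFEB and TFE3, which the Rags restrain, bind an E-box with the core CACGTG. Each run is the 250 bases before the RefSeq gene start, read 5′ to 3′ on the strand of the gene, in RefSeq's GRCm38.p6, and capitals mark each CACGTG.
Lamtor4: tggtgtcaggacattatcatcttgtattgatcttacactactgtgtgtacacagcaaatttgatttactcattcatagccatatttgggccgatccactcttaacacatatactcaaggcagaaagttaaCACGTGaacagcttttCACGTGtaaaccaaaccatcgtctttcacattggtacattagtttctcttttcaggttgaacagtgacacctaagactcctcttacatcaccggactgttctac
Rragc: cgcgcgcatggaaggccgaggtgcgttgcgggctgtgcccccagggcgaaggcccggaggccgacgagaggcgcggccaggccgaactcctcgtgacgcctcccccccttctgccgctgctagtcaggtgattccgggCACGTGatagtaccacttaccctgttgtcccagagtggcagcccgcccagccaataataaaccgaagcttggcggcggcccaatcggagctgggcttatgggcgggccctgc
Rraga: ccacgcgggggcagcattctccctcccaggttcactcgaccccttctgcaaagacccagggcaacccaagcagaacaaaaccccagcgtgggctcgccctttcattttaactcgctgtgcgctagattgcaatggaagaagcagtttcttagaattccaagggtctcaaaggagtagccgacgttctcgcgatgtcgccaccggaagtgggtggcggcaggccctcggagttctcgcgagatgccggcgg
The Lamtor4 run lies at chr5:138255232-138255481, the Rragc run at chr4:123917183-123917432 and the Rraga run at chr4:86575423-86575672, each on the plus strand. Lamtor4 held CACGTG at a pair of places, starting 120 and 104 bases before the start, Rragc held it at 1 place, 112 bases before the start, and Rraga held none. RefSeq promoters were matched for 9 members, and 4 of them (Lamtor1, Lamtor4, Rragb and Rragc) held CACGTG, which reads the same on both strands, against 6.02% of 32851 promoters of the same length. The extended form TCACGTGA, which contains CACGTG, was in 0 of the 9 and in 0.785% of all promoters. The CCAAT box, searched on both strands, was in 6 of the 9 against 33.8%, and the GC box GGGCGG, also on both strands, was in 3 of the 9 against 32.7%. The log2 differences of the 4 members with CACGTG were 0.54 for Lamtor4, -0.33 for Rragc, -0.095 for Lamtor1 and 0.0096 for Rragb, which was under the minimum. A match of letters is a description of the sequence and not of binding, and its relation to the differences was not tested.

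Rraga encodes RagA and has 1 exon, on chromosome 4 (86575668 to 86577285, plus strand, mm10). It was at 23.1, 24.6 and 31.3 FPKM in D-serine kidneys, against 32.7, 34.7 and 35.1 FPKM in vehicle kidneys. All 3 D-serine libraries lay below all 3 vehicle libraries, with D-serine replicate 3 only just below, and the vehicle libraries were much closer to each other (SD 4.37 FPKM in D-serine and 1.31 FPKM in vehicle kidneys, n = 3 each). The log2 difference was -0.37 ± 0.13 (SE), with a limma adjusted p of 0.12 and a 95% interval from -0.67 to -0.079. Without D-serine replicate 3, the highest of its group, the difference was -0.50 and passed (limma adjusted p = 0.048), and no other change of library or processing that was tried gave a call for any member.

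Rragb, on the X chromosome (153139981 to 153171943, plus strand), encodes RagB, the close relative of RagA. It was at 0.343, 0.855 and 0.637 FPKM in D-serine kidneys, against 0.562, 0.696 and 0.509 FPKM in vehicle kidneys, which at the estimated depth is about 6 to 14 fragments per library. The D-serine libraries held both the lowest and the highest of the 6 values. With a mean of 0.600 FPKM it was below the minimum for testing, and without that minimum its log2 difference was 0.0096 (limma adjusted p = 0.98). Rraga made up 98.5, 96.6 and 98.0% of the summed Rraga and Rragb FPKM in D-serine libraries and 98.3, 98.0 and 98.6% in vehicle libraries, so that nearly all transcripts of the RagA or RagB side were Rraga in each kidney.

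Rragc encodes RagC, a partner of RagA or RagB, and lies on chromosome 4 (123917446 to 123936997, plus strand). It was at 23.9, 18.3 and 24.8 FPKM in D-serine kidneys, against 27.9, 29.3 and 27.2 FPKM in vehicle kidneys. The groups did not overlap, and D-serine replicate 2 stood lowest. The log2 difference was -0.33 ± 0.13 (SE, limma adjusted p = 0.15, 95% interval from -0.63 to -0.033), and it was -0.20 without D-serine replicate 2. All 3 D-serine libraries lie below all vehicle libraries for 19.4% of all genes tested, so such a separation is common in this table.

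Rragd encodes RagD, the alternative to RagC, and in humans its mutations cause a kidney tubule disorder with loss of magnesium and heart muscle disease. Its gene lies on chromosome 4 as well (32983037 to 33022180, plus strand). It was at 16.8, 14.7 and 11.6 FPKM in D-serine kidneys, against 13.9, 16.6 and 14.0 FPKM in vehicle kidneys. D-serine libraries held both the highest and the lowest value, and the log2 difference was -0.057 (limma adjusted p = 0.82, 95% interval from -0.40 to 0.28). Rragd made up 41.2, 44.5 and 31.9% of the summed Rragc and Rragd FPKM in D-serine libraries, against 33.3, 36.2 and 34.0% in vehicle libraries. The mean share was 39.2 ± 6.57% in D-serine and 34.5 ± 1.52% in vehicle kidneys (SD, n = 3 each), and the groups overlapped because D-serine replicate 3 was the lowest of all 6. The difference of 4.71 percentage points was 2.06 without D-serine replicate 2 and 8.39 without D-serine replicate 3. The summed FPKM of the 4 Rag genes was 64.1, 58.5 and 68.4 in D-serine kidneys, against 75.1, 81.4 and 76.9 in vehicle kidneys, without overlap, and Rraga and Rragc carry that difference. The sum of the 5 Lamtor genes went the other way in these values, at 840, 844 and 858 FPKM in D-serine and 713, 786 and 800 FPKM in vehicle kidneys. It was not recomputed with the trend of transcript length and GC content, described below, taken out. After that step the log2 difference was 0.32 for Lamtor4, but -0.29 for Lamtor1, -0.20 for Lamtor2, -0.15 for Lamtor3 and -0.11 for Lamtor5. The direction of the Lamtor sum may thus depend on that trend. Among single genes, 35.8% of all tested had groups that did not overlap.

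**Figure D2:**
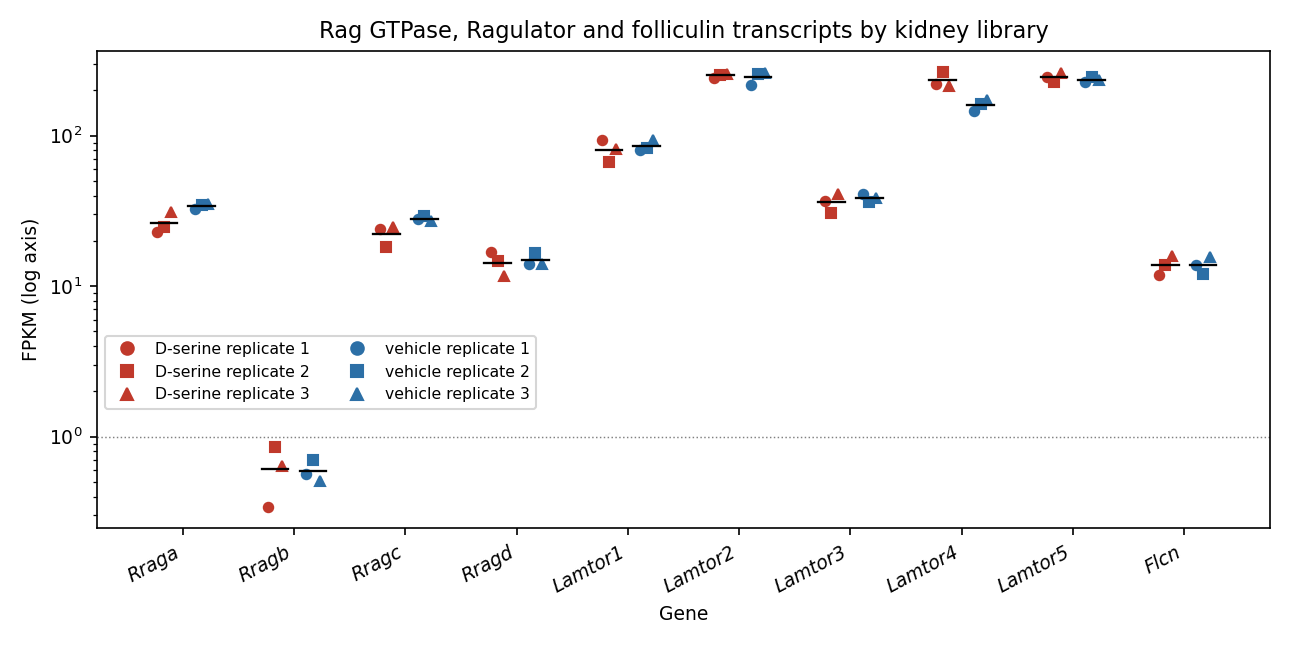
FPKM of the 10 genes (y axis, log scale) in each of the 3 D-serine and 3 vehicle libraries; black lines are group means and the dotted line marks 1 FPKM, the minimum for testing. The D-serine points lie wholly above the vehicle points for Lamtor4 and wholly below them for Rraga and Rragc, and Rragb is the lowest gene in every library.

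Ragulator is anchored in the lysosomal membrane by Lamtor1, which wraps around a pair of dimers, Lamtor2 with Lamtor3 and Lamtor4 with Lamtor5. Lamtor1 lies on chromosome 7 (101905904 to 101926675, plus strand). It was at 93.1, 67.3 and 81.9 FPKM in D-serine kidneys, against 80.1, 83.3 and 94.0 FPKM in vehicle kidneys. The groups overlapped, with D-serine replicate 2 lowest, and the log2 difference was -0.095 (limma adjusted p = 0.67, 95% interval from -0.42 to 0.23).

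Lamtor2 and Lamtor3, which together also scaffold the kinases MEK1 and ERK1, lie on chromosome 3 (88549819 to 88553074, minus strand, and 137918506 to 137928900, plus strand). Lamtor2 was at 242, 255 and 257 FPKM in D-serine kidneys, against 218, 258 and 263 FPKM in vehicle kidneys. Lamtor3 was at 36.9, 30.7 and 41.3 FPKM in D-serine kidneys, against 40.9, 36.3 and 38.4 FPKM in vehicle kidneys. The groups of each gene overlapped, with log2 differences of 0.034 for Lamtor2 and -0.093 for Lamtor3 (limma adjusted p = 0.85 and 0.65). Although their proteins pair, the Lamtor2 level was 7.03 ± 1.11 times that of Lamtor3 in D-serine and 6.42 ± 0.958 times in vehicle kidneys (SD, n = 3 each). That ratio is uncertain, since Lamtor2 is a short transcript (0.67 kb) and Lamtor3 has a processed pseudogene of 99.5% identity.

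Lamtor4 lies on chromosome 5 (138255482 to 138259398, plus strand, 4 exons in its longest coding transcript). It was at 222, 263 and 215 FPKM in D-serine kidneys, against 146, 162 and 172 FPKM in vehicle kidneys. Every D-serine library lay above every vehicle library, as for 16.5% of all genes tested, and D-serine replicate 2 was highest. The log2 difference was 0.54 ± 0.12 (SE, limma adjusted p = 0.069, unadjusted p = 0.0020, 95% interval from 0.27 to 0.81). By unadjusted p it stood at place 340 of the 11737 genes. Its dimer partner Lamtor5, also on chromosome 3 (107278858 to 107284082, plus strand), was at 246, 228 and 262 FPKM in D-serine kidneys, against 228, 247 and 233 FPKM in vehicle kidneys. Those groups overlapped (log2 difference 0.054, limma adjusted p = 0.73, 95% interval from -0.16 to 0.27). Within the dimer, the ratio of Lamtor4 to Lamtor5 was 0.901, 1.15 and 0.823 in D-serine kidneys, against 0.638, 0.658 and 0.738 in vehicle kidneys, again without overlap.

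Seen as a set, Lamtor4 accounted for 26.4, 31.2 and 25.1% of the summed FPKM of the 5 Lamtor genes in D-serine libraries, against 20.4, 20.6 and 21.5% in vehicle libraries. The share of Lamtor2 was 28.9, 30.2 and 30% in D-serine libraries, against 30.6, 32.8 and 32.8% in vehicle libraries, and the shares of Lamtor1, Lamtor3 and Lamtor5 overlapped. The order of levels was the same in both groups, from Lamtor2 over Lamtor5, Lamtor4, Lamtor1, Lamtor3, Rraga, Rragc, Rragd and Flcn to Rragb. In D-serine kidneys the libraries of Lamtor2, Lamtor5 and Lamtor4 overlapped as neighbours in that order, as did Lamtor3 with Rraga and Rraga with Rragc. In vehicle kidneys Lamtor5 lay apart from Lamtor4, Lamtor3 from Rraga and Rraga from Rragc. Rragd and Flcn overlapped in both groups. Within the D-serine group no library was lowest or highest throughout: replicates 1 and 2 each held the lowest value of 4 members and the highest of 2, and replicate 3 held the highest of 6 and the lowest of 2.

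**Figure D3:**
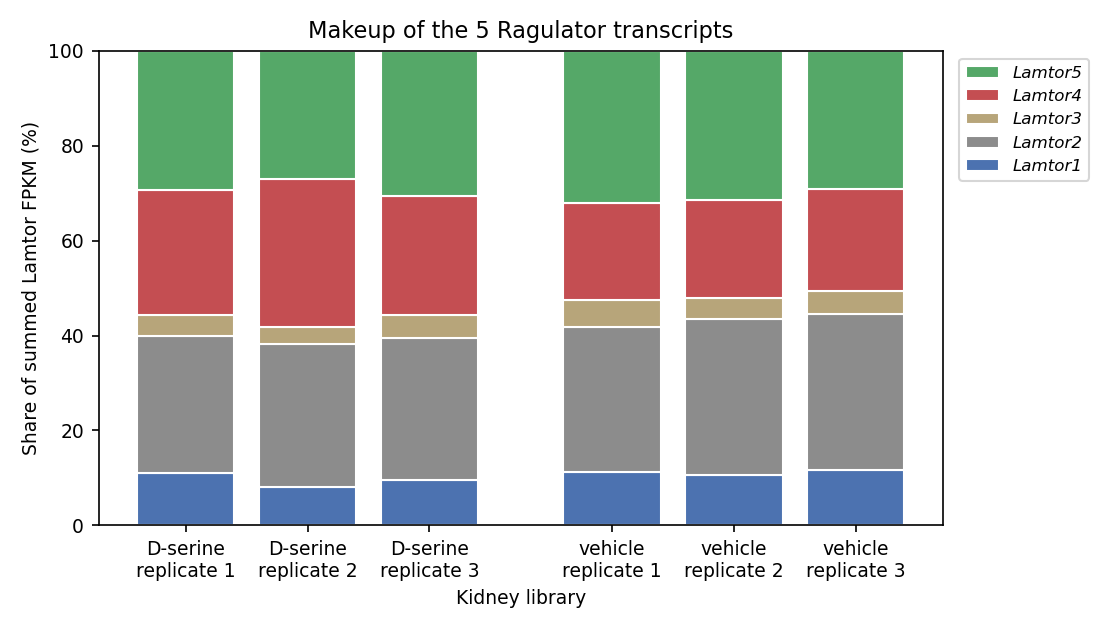
Share of the summed FPKM of the 5 Ragulator genes (y axis, percent) taken by each gene in the 3 D-serine and 3 vehicle libraries (x axis). The Lamtor4 band spans 25.1 to 31.2% in the D-serine libraries and 20.4 to 21.5% in the vehicle libraries.

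Flcn lies on chromosome 11 (59791408 to 59810016, minus strand). It was at 11.9, 13.8 and 15.9 FPKM in D-serine kidneys, against 13.8, 12.1 and 15.6 FPKM in vehicle kidneys. The libraries were interleaved, and the means were 13.9 ± 2.04 FPKM in D-serine and 13.8 ± 1.73 FPKM in vehicle kidneys (SD, n = 3 each). The log2 difference was 0.0028 (limma adjusted p = 0.99) with a 95% interval from -0.32 to 0.32, so these libraries leave room for a change of up to that size in either direction.

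Transcript length moved with the difference across the whole table, and this touches Lamtor4 and the other short Ragulator transcripts. The median log2 difference was 0.25 for the 810 tested genes with a transcript of up to 1 kb, 0.088 for those over 1 and up to 2 kb, -0.014 for those over 2 and up to 4 kb, and -0.11 for those over 4 kb. Among the 810 short genes, 33.6% had all D-serine libraries above all vehicle libraries and 2.22% had them below. Lamtor4 (0.88 kb, 56.3% GC) and Lamtor2 (0.67 kb, 57% GC) both fall among the 266 short genes with over 55% GC, whose median was 0.31 and of which 41.4% had all D-serine libraries higher. Lamtor4 lay above that median and Lamtor2 below it. Once the trend of length and GC content was taken out of each library, the log2 difference of Lamtor4 was 0.32 (limma adjusted p = 0.12), that of Lamtor2 was -0.20 and that of Lamtor1 was -0.29 (limma adjusted p = 0.22). Lamtor1, whose groups overlapped before, then separated, at 85.3, 61.8 and 79.2 FPKM in D-serine and 88.5, 90.7 and 95.9 FPKM in vehicle libraries. Which members separate thus depends on this trend. Rraga and Rragc, at -0.41 and -0.29, kept their direction and size within 1.5 times. The part of this trend in the Lamtor4 difference was not tested further.

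**Figure D4:**
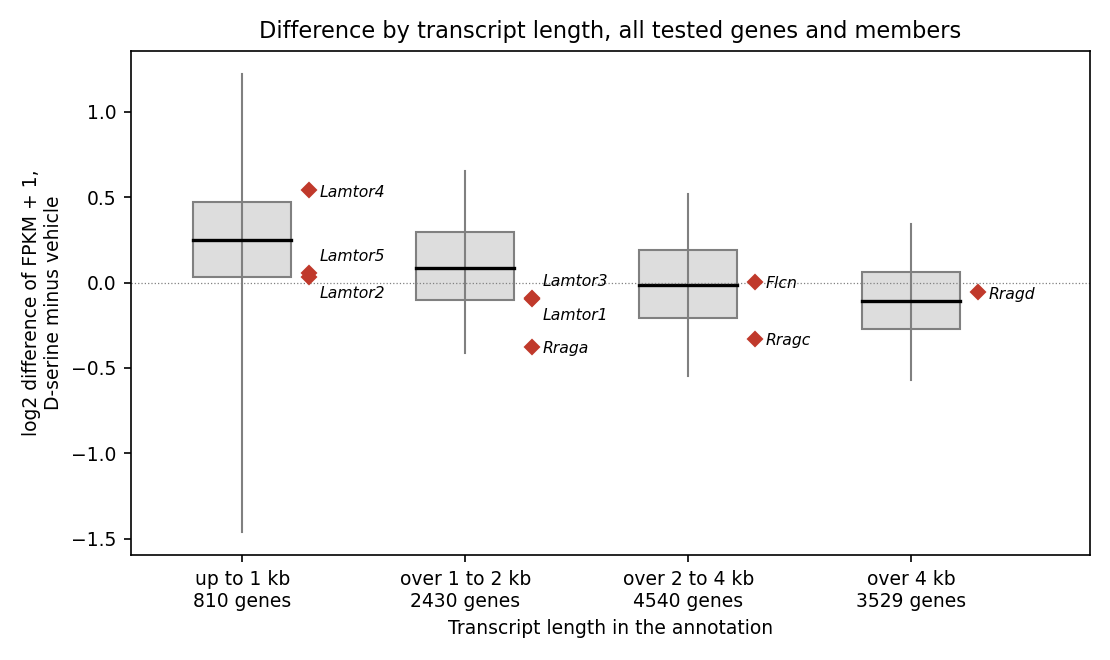
Log2 difference of FPKM + 1, D-serine minus vehicle (y axis), by annotated transcript length (x axis): grey boxes span the quartiles of all tested genes, the black line is the median, thin lines run from the 5th to the 95th percentile, and red diamonds are the members. The box medians step down from 0.25 to -0.11 with length, and Rraga at -0.37 lies below the quartiles of its length class while Lamtor4 at 0.54 lies above those of its own.

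Some reads of these genes could have been shared with other loci. The annotation holds processed pseudogenes with at least 95% identity over at least 150 bases for Lamtor1 (98.4% for Gm5510 and 96.5% for Gm13077), Lamtor3 (99.5% for Gm5900) and Lamtor5 (97.8% for Gm15190 and 96.1% for Gm13537), none of which has a row in the files, so these 3 levels are uncertain. Lamtor1 shares 600 exon bases with Lrrc51 on the opposite strand, and Rragc shares 264 with 4930535I16Rik. The library kit marks strand, but the sources used here do not say whether quantification used it. No copy met these limits for Lamtor4 or Rraga. BC037034, which runs toward Lamtor4 from the opposite strand 258 bases away, was at 15, 20.5 and 17.8 FPKM in D-serine kidneys, against 12.4, 13 and 14.5 FPKM in vehicle kidneys (log2 difference 0.38, limma adjusted p = 0.12). Haus6, beside Rraga, was at 1.22, 1.09 and 0.551 FPKM in D-serine kidneys, against 1.06, 1.02 and 1.25 FPKM in vehicle kidneys.

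Across the 6 libraries, the genes whose log2(FPKM + 1) ran most like Lamtor4 among 7786 genes of at least 5 FPKM were Ltc4s, the leukotriene C4 synthase gene (Pearson r = 0.997), the ribosomal protein gene Rpl38 (r = 0.996) and Cd59a, which encodes a complement inhibitor (r = 0.996). Rpl38, for instance, was at 3089 ± 424 FPKM in D-serine and 2069 ± 150 FPKM in vehicle kidneys (SD, n = 3 each). Those most like Rraga were Vps13d, a lipid transfer protein gene (r = 0.994), the sulfotransferase gene Sult1d1 (r = 0.987) and the monooxygenase gene Fmo5 (r = 0.986). Sult1d1 was at 218 ± 44 FPKM in D-serine and 286 ± 22.6 FPKM in vehicle kidneys. Values of r from so few libraries, picked from so many genes, are given as a description and carry no test.

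The machinery on which the Rags act was measured beside them. In the list of mTORC1 core genes and Rheb, 5 of 7 tested members were lower and 2 higher (median log2 difference -0.18), and 1 passed over all genes: Mtor fell to 18.0 ± 0.483 FPKM in D-serine kidneys, against 32.9 ± 2.65 FPKM in vehicle kidneys (SD, n = 3 each, log2 difference -0.83, limma adjusted p = 0.049). That call lies at the threshold and was lost under 9 of 17 other ways of processing, among them leaving out any 1 library other than D-serine replicate 3, while the log2 difference itself stayed between -0.89 and -0.77 under all 17. Rptor, whose protein binds the Rags within mTORC1, was at 4.52 ± 0.401 FPKM in D-serine and 5.19 ± 0.528 FPKM in vehicle kidneys and overlapped. Akt1s1, encoding the mTORC1 inhibitor PRAS40, was at 72 ± 10.5 FPKM in D-serine and 57.1 ± 3.27 FPKM in vehicle kidneys. Deptor, another inhibitor, was at 6.76 ± 1.52 FPKM in D-serine and 9.34 ± 0.942 FPKM in vehicle kidneys (limma adjusted p = 0.15 for Akt1s1 and 0.14 for Deptor). Their log2 differences of 0.32 and -0.43 became 0.11 and -0.24 once the length and GC trend was taken out.

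Of 11 partners and regulators of the Rags, Ragulator and folliculin, 4 were higher and 7 lower (median log2 difference -0.018), and limma called 0. At a limma unadjusted p under 0.05 there were 2 of the 11, against 27.7% of all genes tested. Fnip1 and Fnip2, whose proteins bind folliculin, were at 5.87 ± 0.640 and 15.7 ± 3.73 FPKM in D-serine kidneys, against 6.42 ± 0.137 and 15.6 ± 0.131 FPKM in vehicle kidneys. Slc38a9, the lysosomal arginine sensor that acts on the Rags, was at 2.27 ± 0.233 FPKM in D-serine and 2.10 ± 0.149 FPKM in vehicle kidneys. Those 3 overlapped. 2310047M10Rik (Borcs6), whose protein in human cells blocks the binding of Rags to Ragulator, was at 12.9, 11.3 and 8.28 FPKM in D-serine kidneys, against 7.90, 8.01 and 7.88 FPKM in vehicle kidneys (log2 difference 0.39, limma adjusted p = 0.16), and it passed without D-serine replicate 3 (log2 difference 0.55, adjusted p = 0.047). Smcr8, whose protein forms a complex with C9orf72 and is related in structure to folliculin, was at 4.05, 3.07 and 4.10 FPKM in D-serine kidneys, against 5.97, 5.18 and 4.57 FPKM in vehicle kidneys (log2 difference -0.40, limma adjusted p = 0.13). For both of these genes the groups did not overlap, as for 35.8% of all genes tested. The Smcr8 difference was -0.26 once the length and GC trend was taken out. That trend was not removed for 2310047M10Rik, which had no match by symbol in the annotation.

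The MiT/TFE factors and their targets outside the members gave 7 higher and 15 lower of 22 tested genes, with a median log2 difference of -0.058. Limma gave 0 calls, and 4 of the 22 were at an unadjusted p under 0.05, against 27.7% of all genes tested. Tfeb itself was at 18.9, 22.9 and 17 FPKM in D-serine kidneys, against 14.5, 15.1 and 16.2 FPKM in vehicle kidneys (log2 difference 0.33, limma adjusted p = 0.14). Its groups did not overlap, as for 35.8% of all genes tested. The Tfeb log2 difference was 0.12 once the length and GC trend was taken out. Tfe3 was at 8.57 ± 0.118 FPKM in D-serine and 8.68 ± 0.795 FPKM in vehicle kidneys. Among the targets, the autophagy receptor gene Sqstm1 was at 273 ± 29.1 FPKM in D-serine and 336 ± 12.5 FPKM in vehicle kidneys. The proton pump gene Atp6v0d2, which is also a marker of intercalated cells, was at 31.4 ± 5.65 FPKM in D-serine and 23.4 ± 1.68 FPKM in vehicle kidneys (limma adjusted p = 0.12 for Sqstm1 and 0.13 for Atp6v0d2). Sqstm1 was thus lower and Atp6v0d2 higher, and the activity of the factors was not tested.

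BORC, which moves lysosomes with Arl8 and binds Ragulator, had 6 of 9 tested genes higher, 3 lower and 0 called by limma (median log2 difference 0.094). At a limma unadjusted p under 0.05 there were 2 of the 9, against 27.7% of all genes tested. The BORC subunit gene 2310045N01Rik (Borcs8) was at 32.3 ± 1.83 FPKM in D-serine and 27.2 ± 1.52 FPKM in vehicle kidneys, and Arl8b at 30.6 ± 4.79 FPKM in D-serine and 38.0 ± 2.46 FPKM in vehicle kidneys (limma adjusted p = 0.15 and 0.18). For Arl8b the log2 difference of -0.31 was -0.17 once the length and GC trend was taken out and -0.19 without D-serine replicate 2. The trend was not removed for 2310045N01Rik, which likewise had no match by symbol. Of the 3 kinase genes of the module that Lamtor2 and Lamtor3 scaffold, 1 was higher, 2 were lower and 0 were called by limma (median log2 difference -0.089). Of these 3, 1 was at a limma unadjusted p under 0.05, against the same 27.7% of all genes tested.

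Kidney genes were present, as the tissue label says. Slc34a1 of the proximal tubule was at 2026 to 2590 FPKM and Aqp2 of the collecting duct at 110 to 275 FPKM over the 6 libraries. All 8 defining kidney genes examined were above 0 in each library, which by itself is a weak check. In bulk tissue, fewer cells of a type and less RNA per cell cannot be told apart, and several marker lists differed between the groups. Of 16 proximal tubule markers 14 were lower (median -0.46 on the log2 scale). The summed level of that list, to which abundant genes contribute most, was 5676 to 7534 FPKM in D-serine and 8674 to 8926 FPKM in vehicle kidneys. Its mean log2(FPKM + 1), which counts each gene equally, overlapped, at 6.98 to 7.68 in D-serine and 7.6 to 7.95 in vehicle kidneys. The 7 tested principal cell markers and the 8 intercalated cell markers were all higher, with medians of 0.76 and 0.53. Summed, they were at 676 to 1017 and 246 to 333 FPKM in D-serine kidneys, against 458 to 614 and 196 to 237 FPKM in vehicle kidneys. All 8 markers of the distal convoluted and connecting tubule were higher (median 0.36), while thick ascending limb markers were split 4 to 4 (-0.071). All 8 markers of fibroblasts and smooth muscle were higher (0.54), as were 5 of 7 endothelial (0.38), 6 of 7 podocyte (0.42), and 4 of 6 leukocyte markers (0.26), of which 10 were listed and 1 was at 0 in all libraries. The 10 cell division genes were all higher, with a median of 2.13, and their mean log2(FPKM + 1) was 4.37 in D-serine replicate 1 against 3.06 and 2.85 in the other D-serine libraries and 1.22 to 1.51 in vehicle libraries. Of 8 stress and immediate early genes 5 were higher (0.30). Their mean log2(FPKM + 1) was 4.09 in D-serine replicate 2, 3.29 and 3.37 in the other D-serine libraries and 2.87 to 3.48 in vehicle libraries. The 2 red cell genes tested were lower (-1.20), with vehicle replicate 1 highest. Limma called 0 genes of these lists, while an unadjusted p under 0.05, reached by 27.7% of all genes tested, was found for all 10 cell division genes, 6 of 7 principal cell, 6 of 8 intercalated cell, 4 of 8 distal convoluted and connecting tubule and 7 of 16 proximal tubule markers. In each of the other lists it was found for at most 3 genes. Without D-serine replicate 1 the log2 difference was 0.57 for Lamtor4, -0.29 for Rraga and -0.38 for Rragc. Leaving out D-serine replicate 2 instead gave 0.45 for Lamtor4, -0.33 for Rraga and -0.20 for Rragc. The part of these marker differences in the 3 transcripts was not tested.

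**Figure D5:**
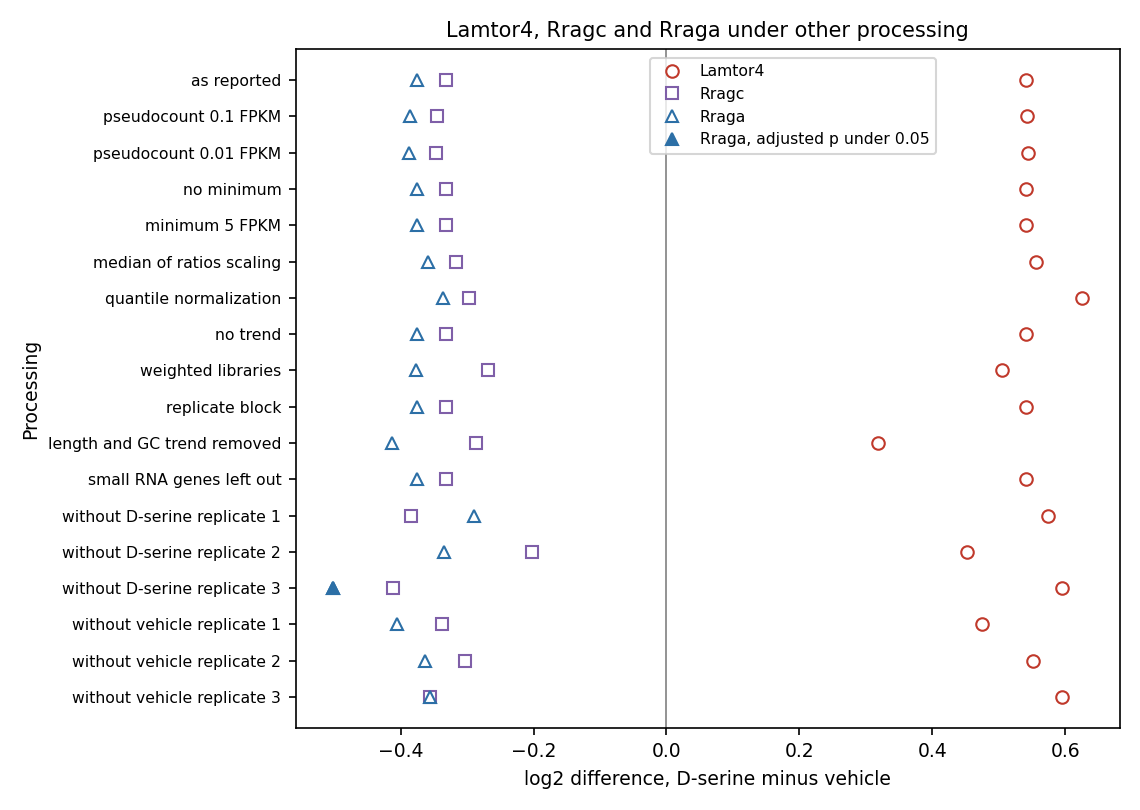
Log2 difference, D-serine minus vehicle (x axis), of Lamtor4, Rragc and Rraga as reported and under 17 other ways of processing the data (y axis); filled symbols mark an adjusted p under 0.05. Lamtor4 stays between 0.32 and 0.63, Rragc between -0.41 and -0.20 and Rraga between -0.50 and -0.29, and the only filled symbol is Rraga without D-serine replicate 3.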

How the data were processed

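Per the labels' protocols, TRIzol was used for kidney RNA and the TruSeq stranded mRNA kit for the libraries. The submitters' processing notes name TopHat2 2.0.13, Bowtie2 2.2.3, SAMtools 0.1.19, Cufflinks 2.2.1 and the build mm10. The authors deposited FPKM values, 1 table per library. The sources used here give neither the annotation nor the strand setting. From the spacing of the lowest values, depth was estimated at 7210000 to 8590000 fragments per library, a rough figure with no interval.

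log2(FPKM + 1) was fitted with limma 3.58.1 in R 4.3.3 (eBayes with trend), D-serine against vehicle, two-sided, over the 11737 genes that averaged 1 FPKM or more, with Benjamini-Hochberg adjustment at 0.05. The pseudocount understates changes of low genes. The scripts were tested on simulated data. Genes were matched by symbol to GENCODE M21 on mm10 (96.4% of those tested), and 5 list genes by an older RefSeq symbol. Genes without a GENCODE match kept their values where the length and GC trend was removed. The alternatives were pseudocounts of 0.1 and 0.01, no minimum or 5 FPKM, scaling by median of ratios, quantile normalization, no trend, weights per library, a block for the replicate number, a loess trend on length and GC content removed (span 0.5), small RNA genes left out, and leaving out each library in turn. No count test was run, since FPKM are not counts.

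No measured value enters the rule that lists the members by name, but that rule and the gene lists were drawn up with earlier results of these data known. All members are named, and from each of the 5 pathway lists up to 6 genes with the smallest unadjusted p under 0.05, plus Fnip1, Fnip2, Slc38a9, Mtor, Rptor, Tfeb and Tfe3. For the members with the largest rise and fall, the 3 most correlated genes are named. Neighbours of a member are named for their position, and markers mainly as lists. Values of some single genes that the rule names are not reported here.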

Additional observations from a re-analysis of the deposited data

How the results depend on the processing

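The count of genes called over the whole table depended strongly on the processing: 9 as reported, 171 and 221 with pseudocounts of 0.1 and 0.01 FPKM, 132 with a minimum of 5 FPKM, 15 with median of ratios scaling, 269 with weighted libraries, 332 without small RNA genes and 2 with the replicate block. Leaving out 1 library gave 2 to 608 calls (608 without D-serine replicate 3, 27 without D-serine replicate 1, and 4, 5 and 2 without vehicle replicates 1 to 3), and the count of members called ran from 0 to 1. The replicate block called 0 members (limma adjusted p = 0.15 for Lamtor4, 0.18 for Rraga and 0.24 for Rragc). Deviations of libraries with the same number were correlated at -0.070, 0.0031 and 0.067 for numbers 1 to 3. Libraries with unequal numbers gave values from -0.082 to 0.083. No pairing by number showed, but with 3 libraries a group a weak one could not be seen, and the labels do not say. The median log2 difference of the members was -0.15 after removal of the length and GC trend, and ran from -0.11 to 0.019 without 1 library (0.019 without D-serine replicate 2). Signs near 0 were not stable. After removal of that trend the log2 difference was 0.077 for Rragd, -0.20 for Lamtor2, -0.11 for Lamtor5, -0.010 for Flcn, 0.063 for Fnip1 and 0.13 for Fnip2. It was -0.018 for Flcn with weighted libraries, 0.00085 for Fnip2 and 0.00040 for Tfe3 with median of ratios scaling, and 0.015 for Fnip2, -0.026 for Slc38a9 and 0.0093 for Tfe3 with quantile normalization. Without 1 library the ranges were -0.17 to 0.078 for Rragd, -0.20 to 0.028 for Lamtor1, -0.050 to 0.083 for Lamtor2, -0.19 to 0.019 for Lamtor3, -0.096 to 0.10 for Flcn, -0.16 to 0.17 for Fnip2 and -0.060 to 0.052 for Tfe3. The Rragd share of Rragc and Rragd differed by 6.23 percentage points after removal of the length and GC trend and by 2.06 to 8.39 without 1 library, and the Rraga share of Rraga and Rragb by -0.98 to -0.035 without 1 library (-0.58 as reported). The trend was not removed from the Rraga share, since Rragb is below the minimum. Without D-serine replicate 2 the log2 difference was 0.21 for Akt1s1, 0.22 for Tfeb and -0.10 for Rptor, and without vehicle replicate 1 it was -0.10 for Rptor. Lamtor4, Rraga and Rragc kept their direction under all 17 alternatives. For most of these that was fixed in advance, since the groups of these genes do not overlap. Only median of ratios scaling, quantile normalization and removal of the length and GC trend could have reversed it. The cause of the shifts between settings was not tested. Depth limits Rragb most.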
